A study of Mus musculus with 9 samples.

Results

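The genes sought here encode proneural basic helix-loop-helix (bHLH) activators, with Hes6 grouped among them, their E-protein partners and the Id inhibitors. They were chosen by symbol from the rows of the normalized expression table. Of 9 symbols sought, Hes6, Tcf3, Tcf4, Tcf12, Id1, Id2, Id3 and Id4 had a row, so 8 of the 18329 genes in the table are described, while Neurod1 was not analysed here. All 8 passed the filter on low values.

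Proneural bHLH proteins bind DNA as pairs with an E-protein, at the E-box sequence CANNTG, and drive neural progenitors towards neuronal differentiation. Id proteins have the helix-loop-helix that makes such pairs but lack the basic region that touches DNA, so they hold E-proteins away from their sites. In neural progenitors Id genes are known targets of BMP signalling, and high Id levels are associated with the maintenance of undifferentiated cells. Hes6, a divergent member of the Hes family, promotes neuronal differentiation in mouse cortical progenitors.

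Total RNA was sequenced from cells of the third ventricular zone (TVZ), the lining of the third ventricle, of untreated mice on postnatal day 1. All mice carried the Nestin-CFPnuc transgene on a C57/BL6 background, in which the Nestin promoter drives a cyan fluorescent protein (CFP), so the Nestin label reads transgene activity rather than the endogenous protein. Sorting by CFP and by the surface protein CD133, the product of Prom1, gave CD133+Nestin+, Nestin+ and CD133+ cells, with 3 libraries each. Whether cells of a single label lacked the other marker, and whether animals were pooled, is not stated, nor that libraries came from separate animals, so p-values reflect only the spread among the libraries, which may be technical.

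Both families share a stretch of coding sequence in which the members can be compared base by base. It is shown because reads from near-identical copies could be shared between genes. The stretch was chosen by matching alone, and the protein domain it encodes was not mapped. In each family the stretch was the 90 coding bases of a reference member, Id1 or Tcf3, with the most matches to the other members. Sequences were taken from GENCODE M21 on GRCm38, and capitals mark the bases identical in all members of that family. For the Id genes the stretch lies in exon 1, and 52 of 90 bases (57.8%) were identical in all 4. It runs from chr2:152736551-152736640 on the plus strand in Id1 and from chr12:25095780-25095869 on the minus strand in Id2. In Id3 it is chr4:136144035-136144124 and in Id4 chr13:48261726-48261815, both on the plus strand.
Id1: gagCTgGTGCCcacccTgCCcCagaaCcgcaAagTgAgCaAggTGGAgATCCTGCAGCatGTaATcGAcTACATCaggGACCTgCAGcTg
Id2: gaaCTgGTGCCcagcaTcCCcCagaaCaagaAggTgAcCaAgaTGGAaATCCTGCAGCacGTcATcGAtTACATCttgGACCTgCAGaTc
Id3: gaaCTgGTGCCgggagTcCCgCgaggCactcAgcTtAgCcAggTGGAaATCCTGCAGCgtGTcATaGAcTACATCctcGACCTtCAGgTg
Id4: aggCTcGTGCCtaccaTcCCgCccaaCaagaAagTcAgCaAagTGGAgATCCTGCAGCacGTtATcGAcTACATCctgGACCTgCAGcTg
Within this stretch the closest Id pairs were Id1 with Id2 and Id1 with Id4, at 72 of 90 identical bases each. The most distant were Id1 with Id3 and Id3 with Id4, at 61. The choice of stretch by matches to Id1 favours pairs with Id1, so this order does not rank the genes as a whole. Among the 3 E-protein genes 68 of 90 bases (75.6%) were identical in all. The stretch spans 2 exons between 80410252 and 80412893 on the minus strand of chromosome 10 in Tcf3, and between 71849903 and 71856371 on the minus strand of chromosome 9 in Tcf12.
Tcf3: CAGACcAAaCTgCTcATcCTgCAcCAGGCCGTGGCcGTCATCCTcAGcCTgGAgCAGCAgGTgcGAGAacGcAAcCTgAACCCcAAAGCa
Tcf12: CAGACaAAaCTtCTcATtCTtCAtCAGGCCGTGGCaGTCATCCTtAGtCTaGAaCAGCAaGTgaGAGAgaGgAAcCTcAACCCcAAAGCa
Over whole transcripts, the longest run shared exactly was 11 to 19 bases between Id genes, 18 bases between Tcf3 and Tcf12, 23 between Tcf3 and Tcf4, and 47 between Tcf4 and Tcf12. The labels do not state the read length.

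Levels are CPM, reads scaled to the total of their library, a unit inferred from the values, and 1 read corresponded to 0.0285 to 0.0344 CPM. Differences are on the log2(CPM + 1) scale with their SE from limma, and a gene is said to have passed at a Benjamini-Hochberg adjusted p below 0.05 over 16143 genes. Library titles carry a sort number from 1 to 3, which numbers the replicates. The labels also give a passage of 1 to 3, equal to the sort number in all 9 libraries, so sort and passage cannot be told apart, and what a passage was here is not stated. Libraries with the same number deviated from their populations together, so a second fit held the sort number as a block. Prom1 averaged 147 ± 32.7 CPM in CD133+Nestin+, 51.0 ± 10.3 in Nestin+ and 169 ± 20.0 in CD133+ libraries (SD, n = 3 each). Nes averaged 198 ± 22.6 CPM in CD133+Nestin+, 173 ± 20.0 in Nestin+ and 51.2 ± 10.1 in CD133+ libraries (SD, n = 3 each), so both sort markers followed the labels. CD133+Nestin+ replicate 2 stood apart, with a median correlation of 0.877 with the other 8 libraries across genes, against 0.904 to 0.944 for every other library. Its listed genes summed to 65.9% of the CPM total, the lowest share of the 9 libraries, and values are given with and without it where it decides a result.

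The plot of each gene's level shows the pattern that the tests address. Tcf4, Tcf12, Id2 and Id3 were higher in every Nestin+ library than in all 6 others, Id1 was lower in every CD133+Nestin+ than in every CD133+ library, and Hes6, Tcf3 and Id4 overlapped between populations in most comparisons.

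**Figure D1:**
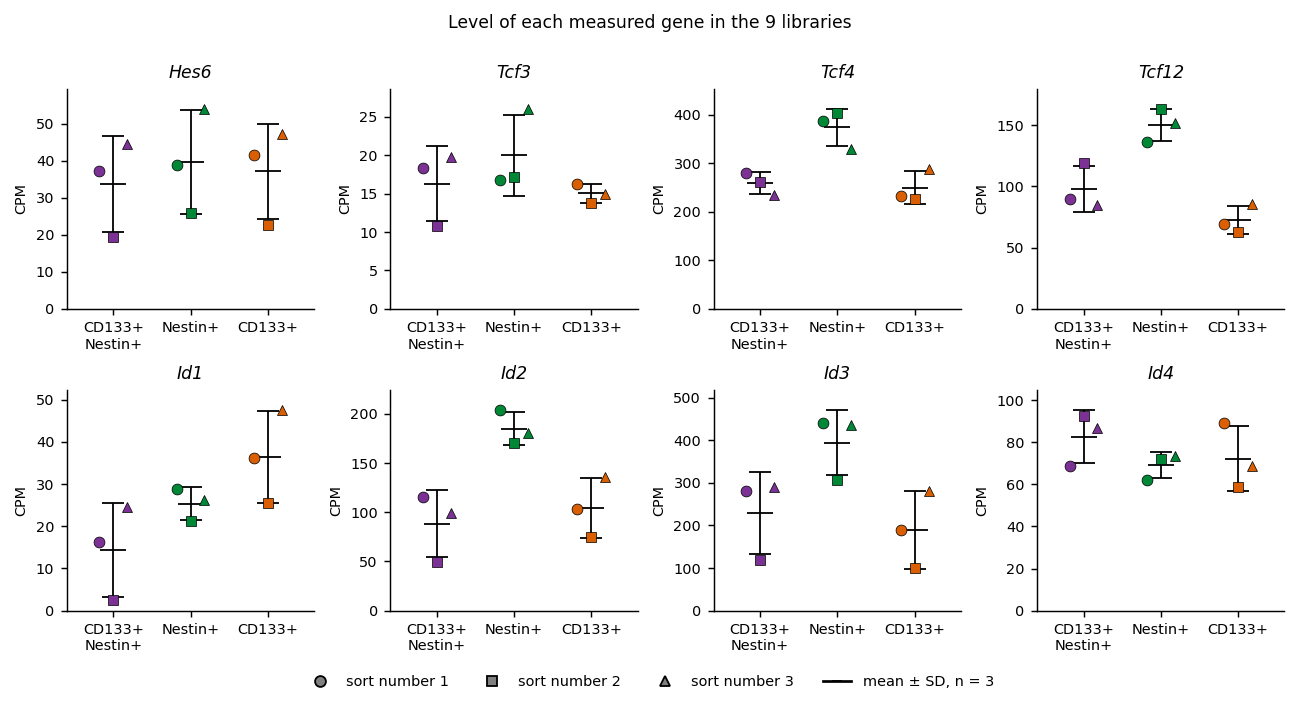
CPM (linear axis from 0) of each of the 8 measured genes in CD133+Nestin+, Nestin+ and CD133+ libraries; marker shape gives the sort number, and the bars are mean ± SD of 3 libraries. For Tcf4, Tcf12, Id2 and Id3 all 3 Nestin+ libraries lie above the other 6, and CD133+Nestin+ replicate 2 has the lowest Id1 level, 2.42 CPM.

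Hes6 (chromosome 1, 91411483 to 91414038, minus strand), of the Hes family, was the only member grouped with the proneural activators that had a row. The members therefore give no level of a proneural activator outside that family. Hes6 stood at 37.3, 19.3 and 44.5 CPM in CD133+Nestin+ libraries 1 to 3. It stood at 38.9, 25.9 and 54.1 in Nestin+ libraries, and at 41.5, 22.7 and 47.2 in CD133+ libraries. The 3 populations overlapped throughout, and library 2 was the lowest in each of them. Its log2 difference was -0.15 ± 0.39 in CD133+Nestin+ versus CD133+ (limma adjusted p = 0.902), 0.09 ± 0.39 in Nestin+ versus CD133+ (0.931) and -0.25 ± 0.39 in CD133+Nestin+ versus Nestin+ (0.874). With the sort number as a block the SE of each fell to 0.19, and none passed.

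Among the E-protein genes, Tcf12 separated the populations most clearly. Tcf12 (chromosome 9, 71842688 to 72111871, minus strand), which pairs with proneural proteins in neural progenitors, stood at 89.4, 119 and 85.0 CPM in CD133+Nestin+ libraries. It stood at 136, 163 and 152 CPM in Nestin+ libraries and at 69.6, 62.5 and 85.5 CPM in CD133+ libraries. Nestin+ libraries lay above all others, while CD133+Nestin+ replicate 3 lay just under the highest CD133+ library. Tcf12 was higher by a log2 of 1.05 ± 0.24 in Nestin+ than in CD133+ cells (limma adjusted p = 0.0145), in 3 of 3 libraries, and was the only member to pass in any comparison without the block. In that comparison 11.9% of all genes passed, 2.45% as higher and 9.42% as lower; after median centring 587 genes were higher and 1300 lower, against 395 and 1520 without it. The call was lost without Nestin+ replicate 2 (log2 0.99, adjusted p = 0.0633) and without CD133+ replicate 2 (0.95, adjusted p = 0.0683). With the block, Tcf12 passed (adjusted p = 0.00590) and did so in 9 of 9 fits that left out 1 library each. In the authors' deposited table Tcf12 had a ratio of 2.07 for Nestin+ over CD133+ and a false discovery rate of 0.0155, and no other member had a rate below 0.05 in any of its comparisons.

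CD133+Nestin+ cells held an intermediate mean level of Tcf12, 97.9 ± 18.7 CPM, against 150 ± 13.2 in Nestin+ and 72.5 ± 11.8 in CD133+ cells (SD, n = 3 each). The difference was -0.62 ± 0.24 in CD133+Nestin+ versus Nestin+ (limma adjusted p = 0.251) and 0.42 ± 0.24 in CD133+Nestin+ versus CD133+ (adjusted p = 0.518). The first of these passed with the block when CD133+Nestin+ replicate 2 was left out (-0.79, adjusted p = 0.0318). Tcf12 also passed limma's F test over the 3 populations (adjusted p = 0.0405), as did 9.5% of all genes, but it did so in only 2 of 9 fits with 1 library left out. The call was lost without CD133+Nestin+ replicate 3, without any Nestin+ library and without any CD133+ library. With the block the F test gave an adjusted p of 0.0161, against 16.5% of all genes passing, and held in 6 of 9 such fits, failing when any Nestin+ library was left out.

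Tcf4, the E-protein gene on chromosome 18 and not the Wnt effector Tcf7l2 that shares the alias, was the most abundant E-protein transcript per length of merged exons in all 9 libraries. It stood at 280, 262 and 235 CPM in CD133+Nestin+ libraries, at 389, 404 and 330 in Nestin+ libraries and at 234, 226 and 290 in CD133+ libraries. The lowest Nestin+ library lay above the highest of the other 6. The log2 difference was 0.58 ± 0.24 in Nestin+ versus CD133+ (limma adjusted p = 0.160, and 0.0592 with the block) and -0.53 ± 0.24 in CD133+Nestin+ versus Nestin+ (0.374, and 0.152 with the block). With the block and CD133+Nestin+ replicate 2 left out, the first of these passed at an adjusted p of 0.0279, as it did with the block when CD133+ replicate 3 was left out (0.0408). CD133+Nestin+ and CD133+ cells differed by 0.06 ± 0.24 (adjusted p = 0.941), with overlapping libraries.

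Tcf3 (chromosome 10, 80409514 to 80433647, minus strand), whose splice forms are the E-proteins first described at immunoglobulin enhancers, was the least abundant of the 3 genes per length. It stood at 18.4, 10.8 and 19.8 CPM in CD133+Nestin+ libraries, at 16.8, 17.2 and 26.1 in Nestin+ libraries and at 16.3, 13.8 and 15.0 in CD133+ libraries. The Nestin+ libraries lay above the CD133+ libraries by a narrow margin, and the log2 difference, 0.36 ± 0.30, did not pass (limma adjusted p = 0.566). CD133+Nestin+ cells overlapped both other populations, with log2 differences of 0.07 ± 0.30 against CD133+ cells (adjusted p = 0.944) and -0.29 ± 0.30 against Nestin+ cells (0.769).

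The Id genes did not share 1 pattern. Id2 and Id3 stood highest in Nestin+ cells, Id1 stood lowest in CD133+Nestin+ cells, and the Id4 levels of all 3 populations overlapped. Id2 (chromosome 12, 25093799 to 25097140, minus strand), whose protein restrains neuronal and oligodendrocyte differentiation in mouse progenitors, had 115, 49.8 and 99.5 CPM in CD133+Nestin+ libraries. It had 204, 171 and 181 CPM in Nestin+ libraries and 103, 74.9 and 135 CPM in CD133+ libraries, so the Nestin+ libraries did not overlap the others. The log2 difference was 0.86 ± 0.34 in Nestin+ versus CD133+, with a limma adjusted p of 0.145 without the block, 0.0280 with it, and 0.0384 without the block when CD133+Nestin+ replicate 2 was left out. It was -1.14 ± 0.34 in CD133+Nestin+ versus Nestin+, with an adjusted p of 0.118 without the block and 0.0183 with it. Under the block Id2 stayed past the threshold in 5 of 9 fits with 1 library left out in Nestin+ versus CD133+, failing without replicate 1 or 2 of either population. The other Id2 call, in CD133+Nestin+ versus Nestin+, held in 6 of 9, failing without CD133+Nestin+ replicate 3 and without Nestin+ replicate 1 or 2.

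Id3 (chromosome 4, 136143497 to 136145755, plus strand) was the most abundant Id transcript per length in every library. It had 282, 119 and 289 CPM in CD133+Nestin+ libraries, 441, 306 and 436 in Nestin+ libraries and 189, 99.2 and 280 in CD133+ libraries. All Nestin+ libraries lay above the other 6, and library 2 was the lowest in each population. The log2 difference in Nestin+ versus CD133+ was 1.16 ± 0.44 (limma adjusted p = 0.125), which passed with the block (SE 0.22, adjusted p = 0.00553) and in 9 of 9 block fits with 1 library left out. In CD133+Nestin+ versus Nestin+ it was -0.86 ± 0.44 (adjusted p = 0.450, and 0.0511 with the block). Between CD133+Nestin+ and CD133+ cells, whose libraries overlapped for both genes, Id3 differed by 0.29 ± 0.44 (adjusted p = 0.823) and Id2 by -0.29 ± 0.34 (0.774). The authors' deposited table gave Id3 a Nestin+ over CD133+ ratio of 2.08 with a false discovery rate of 0.156, and Id2 a ratio of 1.77 with a rate of 0.170. Id genes are also known from astrocytes: the 10 listed astrocyte genes, all measured, summed to 3505 to 7925 CPM in CD133+Nestin+, 6140 to 11279 in Nestin+ and 2190 to 6653 in CD133+ libraries. Of these 10, 2 (Fgfr3 and Slc1a2) were higher in Nestin+ than in CD133+ cells, with 1 to 3 when single libraries were left out and, with the block, 5 higher and 1 lower. Over all genes 2.45% were higher without the block, and with it 6.06% were higher and 13.1% lower. The part of astrocytes in the Id2 and Id3 levels was not tested.

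Id1 (chromosome 2, 152736251 to 152737410, plus strand), a BMP target also known from endothelial cells, had 16.2, 2.42 and 24.5 CPM in CD133+Nestin+ libraries. It had 28.8, 21.2 and 26.1 CPM in Nestin+ libraries and 36.3, 25.6 and 47.5 CPM in CD133+ libraries. CD133+Nestin+ and CD133+ libraries did not overlap, and the log2 difference was -1.67 ± 0.60 (limma adjusted p = 0.249, and 0.0629 with the block). Its size depended on CD133+Nestin+ replicate 2: without it the log2 difference was -0.79 ± 0.31 (adjusted p = 0.307), and with the block as well it was -0.97 ± 0.22 and passed (adjusted p = 0.0391). Under the block it also passed without CD133+Nestin+ replicate 3 (-2.13, adjusted p = 0.0329). CD133+Nestin+ versus Nestin+ gave -1.19 ± 0.60 (adjusted p = 0.452), and -0.32 without that library (0.751). Nestin+ versus CD133+ gave -0.48 ± 0.60 (adjusted p = 0.737), with overlapping libraries.

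Id1 is also expressed in vessels, so the levels of endothelial markers are set beside it. The 8 measured of 12 listed endothelial genes summed to 62.6 to 104 CPM in CD133+Nestin+, 34.9 to 45.6 in Nestin+ and 692 to 1340 in CD133+ libraries, and 8 of 8 were lower in each of the first 2 populations than in CD133+ cells, with none listed at 0; over all genes 9.42% were lower in Nestin+ and 2.12% in CD133+Nestin+ cells. The 12 listed microglial genes, all measured, summed to 50.5 to 391 CPM in CD133+Nestin+, 42.0 to 126 in Nestin+ and 1102 to 3290 in CD133+ libraries, and 12 of 12 were lower in both. In CD133+Nestin+ versus CD133+ this count fell to 6 and 5 without CD133+Nestin+ replicates 2 and 3 and to 4 and 0 without CD133+ replicates 1 and 3, while in Nestin+ versus CD133+ it stayed at 12. The 10 listed genes of ependymal cells, which also carry CD133, summed to 1554 to 1857 CPM in CD133+Nestin+, 380 to 429 in Nestin+ and 1589 to 3269 in CD133+ libraries, and against CD133+ cells 10 of 10 were lower in Nestin+ and 1 of 10 (Mcidas) in CD133+Nestin+ cells. The Mcidas call was lost without replicate 2 or 3 of either population. Of 12 listed mural and fibroblast genes 8 were measured. They summed to 129 to 195 CPM in CD133+Nestin+, 208 to 287 in Nestin+ and 754 to 1514 in CD133+ libraries. Against CD133+ cells, 5 of 8 were lower in Nestin+ (9.42% of all genes) and 5 of 8 in CD133+Nestin+ cells (2.12%). In Nestin+ cells 1 was higher (2.45% of all genes). With single libraries left out these counts were 5, 3 to 5 and 0 to 1. The part of these cells in the Id1 levels was not tested. In bulk samples, fewer cells of a type and less RNA per cell cannot be told apart.

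Id4 (chromosome 13, 48261228 to 48266026, plus strand), which in mouse neural progenitors supports proliferation and the timing of differentiation, had 68.6, 92.7 and 86.7 CPM in CD133+Nestin+ libraries. It had 62.1, 72.1 and 73.4 CPM in Nestin+ libraries and 89.2, 58.9 and 68.6 CPM in CD133+ libraries. All 3 populations overlapped, and the largest log2 difference, 0.25 ± 0.24 in CD133+Nestin+ versus Nestin+, did not pass (limma adjusted p = 0.757). The others were 0.20 ± 0.24 in CD133+Nestin+ and -0.04 ± 0.24 in Nestin+, each against CD133+ cells.

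Over the 8 genes together, the median log2 difference was 0.06 in CD133+Nestin+ versus CD133+ (-0.06 over all genes), 0.47 in Nestin+ versus CD133+ (-0.02) and -0.58 in CD133+Nestin+ versus Nestin+ (-0.04). Of the 8, 5 (Tcf3, Tcf4, Tcf12, Id2 and Id3) lay higher in every Nestin+ than in every CD133+ library, against 11.8% of all genes tested. There 1 passed without the block and 3 with it (Tcf12, Id2 and Id3), against 11.9% of all genes without the block and 19.2% with it. Between CD133+Nestin+ and Nestin+ libraries, 4 of 8 (Tcf4, Tcf12, Id2 and Id3) lay lower without overlap, against 6.21% of all genes. There 0 passed limma's test without the block, against 3.13% of all genes, although 3 had an unadjusted p below 0.05 (13.2% of all genes), and 1 (Id2) passed with the block, against 6.09%. Between CD133+Nestin+ and CD133+ libraries, 1 of 8 (Id1) lay lower without overlap, against 10.9% of all genes, and 0 passed with or without the block, against 4.81% and 2.42% of all genes; 1 (Id1) had an unadjusted p below 0.05, against 12.6%. The comparisons share libraries, so their counts are not independent.

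**Figure D2:**
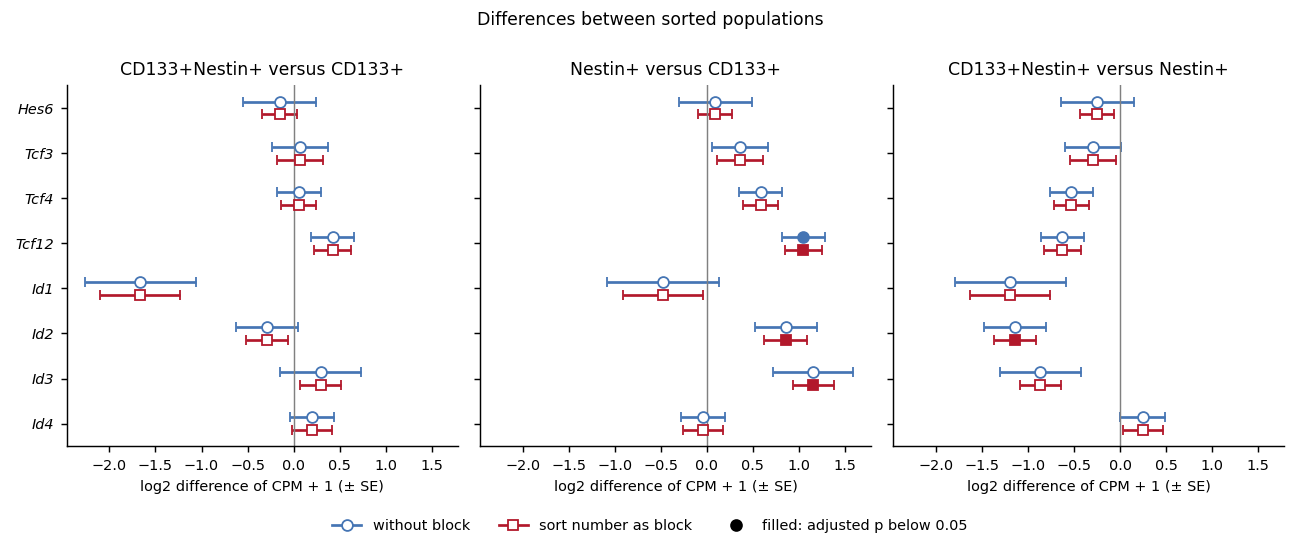
Log2 difference of CPM + 1 (horizontal axis, bars ± SE) of the 8 genes in the 3 comparisons, without a block (circles) and with the sort number as a block (squares); filled symbols have an adjusted p below 0.05. Only Tcf12 is filled without the block, and Tcf12, Id2 and Id3 are filled with it in Nestin+ versus CD133+.

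Levels of different genes can be set side by side only per length. Per kilobase of merged exons, the 4 Id genes summed to 236, 113 and 246 CPM per kb in CD133+Nestin+ libraries, 371, 278 and 359 in Nestin+ libraries and 202, 123 and 271 in CD133+ libraries. The 3 E-protein genes summed to 20.5, 19.9 and 19.0 CPM per kb in CD133+Nestin+ libraries, 27.1, 29.5 and 28.3 in Nestin+ libraries and 17.1, 15.7 and 19.8 in CD133+ libraries. Both sums were highest in the 3 Nestin+ libraries. The ratio of the Id sum to the E-protein sum was 11.5, 5.66 and 13.0 in CD133+Nestin+ libraries, 13.7, 9.43 and 12.7 in Nestin+ libraries and 11.9, 7.85 and 13.7 in CD133+ libraries. These ratios overlapped in all 3 populations, and library 2 was the lowest in each. With the length of the longest coding transcript in place of merged exons, the ratio ran from 2.72 to 6.73 in CD133+Nestin+, 4.61 to 6.74 in Nestin+ and 3.73 to 6.62 in CD133+ libraries.

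Within the Id sum, the share of Id1 set the CD133+ libraries apart. Id1 made up 5.91%, 1.85% and 8.60% of the Id sum per kb in CD133+Nestin+ libraries, 6.69%, 6.57% and 6.28% in Nestin+ libraries and 15.5%, 17.9% and 15.1% in CD133+ libraries. All 3 CD133+ libraries lay above the other 6. This share was chosen after its values were seen and carries no test.

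**Figure D3:**
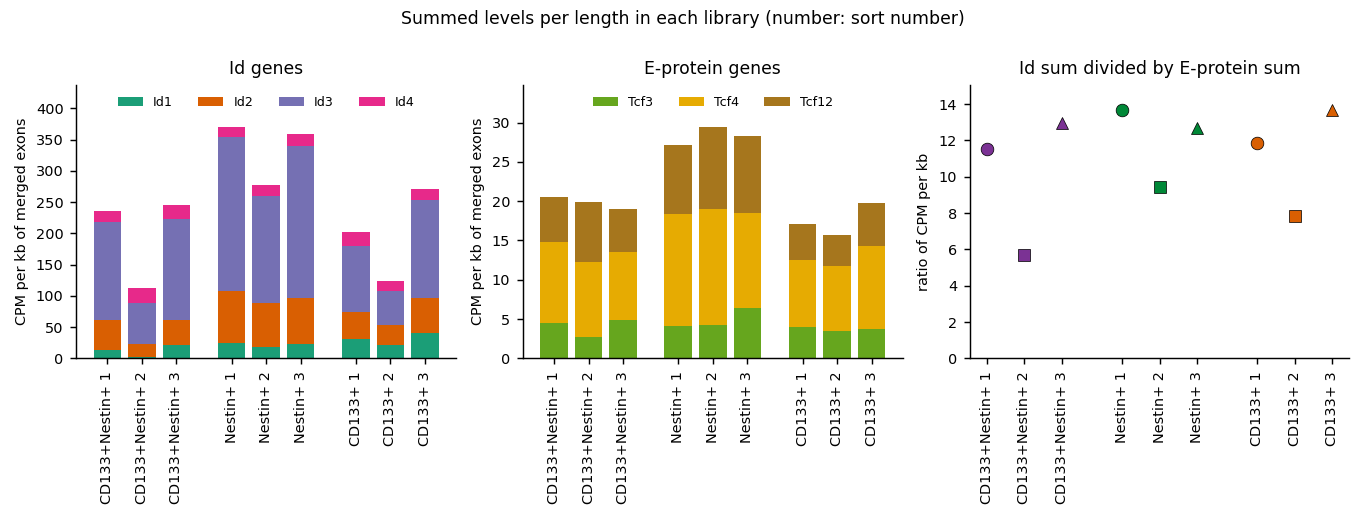
Summed CPM per kb of merged exons of the Id genes (left) and of the E-protein genes (middle) in each library, split by gene, and the ratio of the 2 sums (right). Both sums are highest in the Nestin+ libraries, whereas the ratio, 5.66 to 13.7 over all libraries, overlaps between populations.

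Per kilobase of merged exons the order of mean levels in CD133+Nestin+ cells was Id3 (128 CPM per kb), Id2 (36.2), Id4 (21.5), Hes6 (18.6), Id1 (12.4), Tcf4 (9.46), Tcf12 (6.31) and Tcf3 (4.04). In Nestin+ cells it was Id3 (220), Id2 (76.0), Hes6 (21.9), Id1 (21.9), Id4 (18.0), Tcf4 (13.7), Tcf12 (9.68) and Tcf3 (4.95). In CD133+ cells it was Id3 (106), Id2 (42.9), Id1 (31.5), Hes6 (20.6), Id4 (18.8), Tcf4 (9.13), Tcf12 (4.67) and Tcf3 (3.73). The places of Hes6, Id1 and Id4 in this order were not resolved against the spread between libraries. The places of Tcf4 and Tcf12 depended on the length used. By its longest coding transcript Tcf4 had 30.2, 43.6 and 29.1 CPM per kb in CD133+Nestin+, Nestin+ and CD133+ cells. These means were above Hes6 (25.3, 29.7 and 27.8) and Id4 in each, and above Id1 in CD133+Nestin+ and Nestin+ cells. Tcf12 had 15.5, 23.9 and 11.5 by that length. Its mean was above Id1 (12.4) in CD133+Nestin+ cells, and above Id1 (21.9) and Id4 (18.0) in Nestin+ cells.

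Library 2 was the lowest of the 3 libraries of its population, in all 3 populations, for Hes6, Id1, Id2 and Id3 (library 2 is sort 2 and passage 2 throughout), which is 4 of the 8 genes and a feature of 14.3% of all genes tested. This pattern was looked for after the values were seen. On the log2 scale, deviations from the population mean averaged 0.16, -0.62 and 0.46 for Hes6 in sorts 1, 2 and 3, and 0.23, -0.66 and 0.43 for Id3. They averaged 0.27, -0.81 and 0.54 for Id1, with -1.74 in CD133+Nestin+ replicate 2, and 0.21, -0.42 and 0.21 for Id2. In the block fit the sort number passed limma's F test for Hes6 (adjusted p = 0.0220) and Id3 (0.0322), as it did for 8.77% of all genes, and not for Id1 (0.119) or Id2 (0.130). Tcf4 and Tcf12 kept mean deviations between -0.10 and 0.07, and Id4 between -0.03 and 0.04. The listed genes made up 65.9%, 70.4% and 77.7% of the CPM total in library 2 of CD133+Nestin+, Nestin+ and CD133+ cells, the lowest in each population, against 77.6% to 87.6% in the other 6. The part of this share in the pattern was not tested. After median centring library 2 was still lowest in all 3 populations for these 4 genes, and after quantile normalization for Hes6 and Id1 among them. Tcf3, which lacked the pattern before scaling, showed it after either step.

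**Figure D4:**
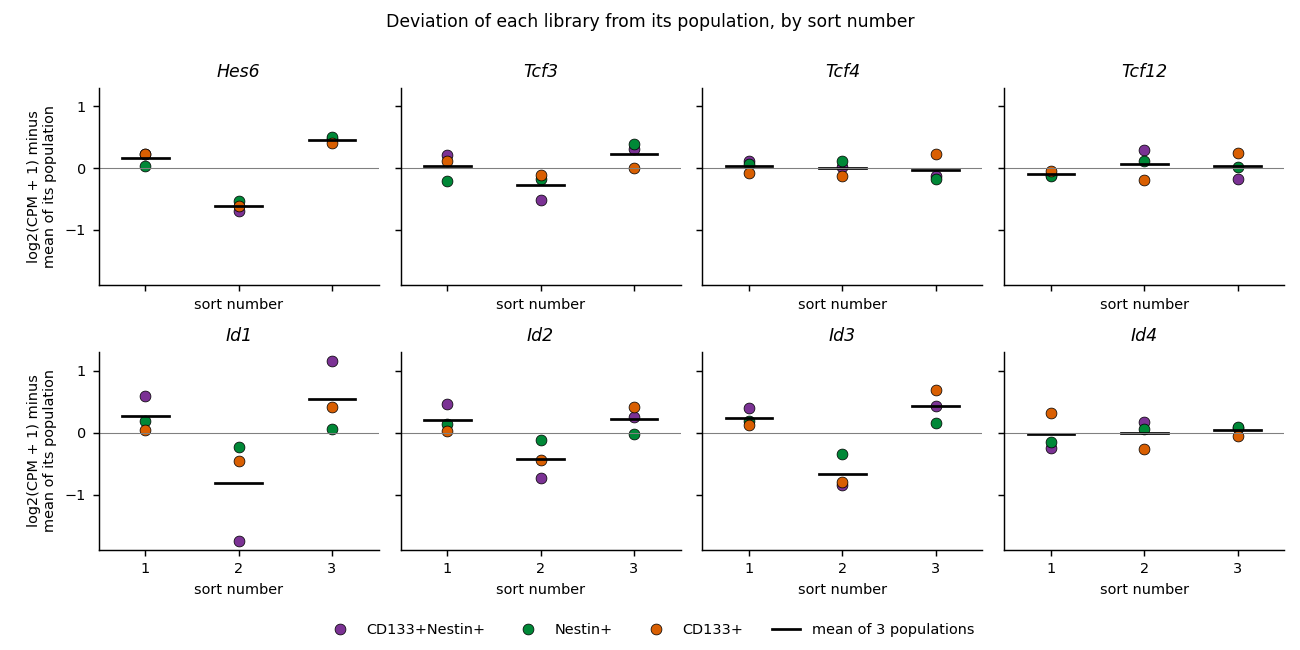
Log2(CPM + 1) of each library minus the mean of its population (vertical axis) against the sort number, for the 8 genes; colours are populations and lines the mean of 3 populations. Hes6, Id1, Id2 and Id3 lie lowest in sort 2 (means -0.62, -0.81, -0.42 and -0.66), while the means of Tcf4 and Tcf12 stay between -0.10 and 0.07.

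Other genes of the pathway are given from lists of known pathway genes, with all listed members counted. Of 19 other proneural and related bHLH genes, 4 were in the table. In Nestin+ versus CD133+ cells Olig2, which specifies oligodendrocyte precursors, was higher, with 37.1 ± 6.34 CPM in Nestin+ and 11.0 ± 7.73 in CD133+ cells (SD, n = 3 each; log2 1.99 ± 0.56, limma adjusted p = 0.0403). Atoh8 was lower, with 3.49 ± 2.54 CPM in Nestin+ and 17.6 ± 9.32 in CD133+ cells (log2 -2.08 ± 0.44, adjusted p = 0.0107). Over all genes 2.45% were higher and 9.42% lower. Olig2 held in 4 of 9 fits with 1 library left out, failing without CD133+Nestin+ replicate 3, any Nestin+ library or CD133+ replicate 2. Atoh8 held in 7, failing without replicate 2 of either population. With the block Olig1, a close relative of Olig2, passed as well (1.78 ± 0.40, adjusted p = 0.0122, against 0.116 without it), so that 2 were higher and 1 lower, where 6.06% and 13.1% of all genes were higher and lower with the block. Olig1 held in 8 of 9 block fits with 1 library left out, failing without Nestin+ replicate 2. The 8 measured of 10 listed oligodendrocyte precursor genes summed to 192 to 527 CPM in CD133+Nestin+, 818 to 1270 in Nestin+ and 84.8 to 166 in CD133+ libraries. Of these, 6 of 8 were higher in Nestin+ than in CD133+ cells, against 2.45% of all genes. The part of these precursors in the Olig2, Id2 and Tcf12 levels was not tested.

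Of 11 Hes and Hey repressor genes and their relatives, 8 were tested, and 2 were higher in Nestin+ than in CD133+ cells, against 2.45% of all genes. Hes5, a Notch effector of neural progenitors, had a log2 difference of 3.01 ± 0.81 (limma adjusted p = 0.0332), and Hey2, a Notch target of the Hey family, one of 0.88 ± 0.25 (0.0408). Hes1 differed by 0.14 ± 0.35 (adjusted p = 0.880). Hes5 held in 5 of 9 fits with 1 library left out, failing without replicate 2 or 3 of either population, and Hey2 held in 1, that without CD133+Nestin+ replicate 2.

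Of 24 genes known to lie downstream of proneural factors, 17 were tested, and in Nestin+ versus CD133+ cells 4 were higher and 1 lower, against 2.45% and 9.42% of all genes. With the block 6 were higher, Elavl3 and Tubb3 in addition, and 1 lower, against 6.06% and 13.1%. The list's median log2 difference was 0.64, against -0.02 over all genes. Dcx, a microtubule protein of migrating neuroblasts, averaged 27.3 ± 8.33 CPM in Nestin+ and 2.73 ± 0.948 in CD133+ cells (log2 2.91 ± 0.48, limma adjusted p = 0.00253). Myt1, a zinc-finger factor of neuronal and oligodendrocyte lineages, averaged 19.9 ± 14.1 CPM in Nestin+ and 0.756 ± 0.349 in CD133+ cells (log2 3.37 ± 0.58, adjusted p = 0.00320). Elavl4, which encodes a neuronal RNA-binding protein (1.63 ± 0.38, adjusted p = 0.0159) and Sox11, a transcription factor of newborn neurons (1.54 ± 0.39, adjusted p = 0.0240) were also higher, and Cbfa2t3, a corepressor also known from blood cells, was lower (-2.56 ± 0.51, adjusted p = 0.00767). The 5 measured of 7 listed erythroid genes, none at 0, summed to 60.6 to 118 CPM in CD133+Nestin+, 24.4 to 344 in Nestin+ and 783 to 1537 in CD133+ libraries. In Nestin+ versus CD133+ all 5 were lower, against 9.42% of all genes, with 3 to 5 when single libraries were left out (3 without Nestin+ replicate 1 or 3 or CD133+ replicate 2 or 3), and their part in the Cbfa2t3 level was not tested. In Nestin+ versus CD133+ without the block, Dcx, Myt1 and Cbfa2t3 held in 9 of 9 fits with 1 library left out. Elavl4 held in 6, failing without Nestin+ replicate 1 or 2 or CD133+ replicate 2, and Sox11 in 5, failing without Nestin+ replicate 2 or 3 or CD133+ replicate 1 or 2. In CD133+Nestin+ versus CD133+ cells 0 of 17 passed without the block and 1 with it (Sox11, higher, against 1.12% of all genes), and in CD133+Nestin+ versus Nestin+ cells 0 passed without it and 2 with it, Dcx and Myt1, both lower, against 1.12% of all genes. In block fits with 1 library left out, this Sox11 call held in 7 of 9, and these Dcx and Myt1 calls in 5 of 9 each. In Nestin+ versus CD133+ the blocked Elavl3 call held in 5 of 9 such fits and that of Tubb3 in 9. The 8 measured of 10 listed neuronal genes summed to 224 to 279 CPM in CD133+Nestin+, 373 to 491 in Nestin+ and 189 to 212 in CD133+ libraries. Of 7 tested, 2 (Snap25 and Map2) were higher in Nestin+ than in CD133+ cells, against 2.45% of all genes, with 1 to 3 when single libraries were left out. The part of neurons in these levels was not tested.

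Of 10 BMP target genes other than Id genes, 6 were tested. The list's median log2 difference was -0.30 in CD133+Nestin+ versus CD133+ (-0.06 over all genes) and 0.13 in CD133+Nestin+ versus Nestin+ (-0.04). In Nestin+ versus CD133+ it was -0.80 (-0.02 over all genes). Without the block 1 of 6, Msx1, passed in each CD133+Nestin+ comparison, so its levels do not describe the list. Msx1, a homeobox target of BMP signalling, averaged 48.3 ± 14.4 CPM in CD133+Nestin+, 5.36 ± 1.25 in Nestin+ and 12.3 ± 4.0 in CD133+ cells (SD, n = 3 each). Its CD133+Nestin+ level exceeded that of CD133+ cells by a log2 of 1.88 ± 0.34 (limma adjusted p = 0.0144) and that of Nestin+ cells by 2.92 ± 0.34 (adjusted p = 0.00230), where 0.297% and 2.87% of all genes were higher. The first of these was lost without CD133+Nestin+ replicate 3 and without CD133+ replicate 1 or 3, and the second held in 9 of 9 such fits. In Nestin+ versus CD133+ cells 0 of 6 passed without the block and 2 with it, both lower: Msx1, and Bambi, which encodes a decoy receptor induced by BMP. Over all genes 13.1% were lower in that comparison with the block. With the block Bambi was also higher in CD133+Nestin+ than in Nestin+ cells (1.69 ± 0.30, limma adjusted p = 0.0106, against 0.149 without it), where 4.97% of all genes were higher. That call held in 6 of 9 block fits with 1 library left out, failing without CD133+Nestin+ replicate 3 and without Nestin+ replicate 1 or 2. In Nestin+ versus CD133+ the blocked Bambi call held in 9 of 9 such fits and that of Msx1 in 4.

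Over the 9 libraries, the profiles most like that of Tcf12 among 9406 genes with a mean of at least 10 CPM were those of Mapk8ip3, Arhgef3 and Zxdc. Their mean-centred log2 profiles differed from it by a root mean square of 0.0999, 0.108 and 0.110, against 0.464 for the size of Tcf12's own profile. Mapk8ip3 averaged 49.1, 67.6 and 35.7 CPM, Arhgef3 24.8, 37.2 and 17.9 CPM and Zxdc 11.7, 19.0 and 8.56 CPM in CD133+Nestin+, Nestin+ and CD133+ cells. The order of the populations was the same as for Tcf12, which follows from choosing genes by closeness to its profile.

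Promoters are shown for Tcf12 and Id2. Like Tcf4 and Id3, both stood highest in Nestin+ cells, and they were picked because a window of each holds the E-box that E-protein pairs bind. The Id3 window held no CANNTG, and no Tcf4 window was used. The sequences are from RefSeq on GRCm38.p6, 5′ to 3′, cut to the part of the 250 bases before a start that lies outside GENCODE exons, with every CANNTG in capitals. The Tcf12 stretch is chr9:72111872-72112069 and the Id2 stretch chr12:25096254-25096342, both on the minus strand.
Tcf12: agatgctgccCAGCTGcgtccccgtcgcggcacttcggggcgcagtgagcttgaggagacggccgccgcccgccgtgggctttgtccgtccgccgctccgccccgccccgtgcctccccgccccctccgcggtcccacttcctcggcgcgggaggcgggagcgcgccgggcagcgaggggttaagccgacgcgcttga
Id2: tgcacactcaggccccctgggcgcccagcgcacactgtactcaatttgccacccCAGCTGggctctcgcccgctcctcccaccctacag
Each holds 1 match, and both are CAGCTG, which reads the same on both strands and is a form of CANNTG. Of the other Tcf12 windows, 1 held CAAGTG and 1 held no CANNTG. Hes6, whose levels overlapped between all populations, held CAGCTG in both of its windows. Of 9 windows found for 6 of the 8 genes, 6 held CANNTG and 4, in Hes6, Tcf12 and Id2, held CAGCTG. Of all 32851 windows of this length, 66.2% held CANNTG and 13.0% held CAGCTG. A match describes the letters only.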

How the data were processed

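Total RNA of 9 libraries was sequenced, with 3 per population as the labels name it. Per the submitters' processing notes, the tools were STAR 2.5.3a, Partek 8.0, bcl2fastq and limma on mm10, without roles; no source used here describes gene counting or strand use, so overlapping genes and close copies are uncertain. The authors deposited normalized values whose unit was inferred from the values as CPM with an offset of 0.0001. The step of 1 read lay between 0.0285 and 0.0344 CPM, and a level of 3 reads was 0.0856 to 0.103 CPM, which covers counting error only. Between 41.0% and 58.8% of low values were whole reads within 0.02 reads, so no count test was run.

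In the authors' second deposited table, per the file headers, a ratio of group means, a p-value and an FDR stand for each pair of groups, and these are quoted as theirs. The log2(CPM + 1) scale used for fitting understates the change of low genes. A gene entered the fit with at least 1 CPM in 3 libraries or more, which kept 16143 and removed 2186. The 3 populations entered 1 limma fit (version 3.58.1, R 4.3.3) with trended, robust variances, and p-values were Benjamini-Hochberg adjusted over all genes at 0.05. The procedure was tested on simulated data.

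Libraries with the same sort number deviated from their group means together (r of 0.204 to 0.73 across genes in 9 pairs, against -0.527 to 0.314 in 18 pairs with different numbers). The titles number the sorts and the passage labels follow that number, but no label says that a number marks shared animals or a shared day. Same-numbered libraries were treated as pairs, from the numbers and this evidence, and blocked values stand beside results they change. Positions and lengths are from GENCODE M21. The named genes are the members, up to 4 called genes of smallest p per pathway list, the 3 genes most like a member that passed the F test, and Prom1 and Nes; Hes1, Sox11, Bambi, Olig1, Elavl3, Tubb3, the named cell type markers and the authors' values were named beside these after their values were seen. Members and lists were chosen with earlier results of these data known. Python 3.11.15 and matplotlib 3.10.9 drew the figures. Alternatives were the block, no filter, a 5 CPM filter, a 0.1 pseudocount, quantile normalization, median centring, weighting of libraries, fits of only the 6 libraries compared, no trend or robust prior, each library left out, sorts 2 and 3 only, and the block without CD133+Nestin+ replicate 2; sorts 1 and 3 only, and the block with each library left out, were added after seeing the data.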

Additional observations from a re-analysis of the deposited data

How the results depend on the processing

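Over 30 alternatives, the 8 genes gave 720 differences in the 3 comparisons: 650 kept their direction and side of the threshold, 35 newly passed, 4 lost the call (all Tcf12 in Nestin+ versus CD133+), 31 uncalled values changed sign and 0 called values reversed. The block fit without CD133+Nestin+ replicate 2 is among the 30 under 2 settings, so its differences enter these counts under each. In Nestin+ versus CD133+ 1 member passed without the block and 3 with the replicate block; 0 passed with sorts 2 and 3 only or, an alternative chosen after seeing the data, sorts 1 and 3 only, 4 with the block and CD133+Nestin+ replicate 2 left out, and 0 to 4 when single libraries were left out with or without the block. In CD133+Nestin+ versus Nestin+ 0 passed, with 1 under the block, 2 under the block without CD133+Nestin+ replicate 2, and 0 to 2 when single libraries were left out. In CD133+Nestin+ versus CD133+ 0 passed, with 1 under the block without CD133+Nestin+ replicate 2, and 0 to 1 when single libraries were left out. The F test passed 1 member, 3 under the block, 2 with quantile normalization or library weights, 0 without trend and robust prior, 0 with sorts 2 and 3 only or 1 and 3 only, 4 under the block without CD133+Nestin+ replicate 2, and 0 to 4 when single libraries were left out. Over all alternatives Tcf12 in Nestin+ versus CD133+ kept a log2 difference of 0.84 to 1.21 with adjusted p of 0.00100 to 0.0759. Over all genes, calls in Nestin+ versus CD133+ numbered 1915, against 3094 with the block and 4182 with library weights, in CD133+Nestin+ versus CD133+ 390, against 776 and 711, and in CD133+Nestin+ versus Nestin+ 505, against 983 with the block. Median centring and quantile normalization moved the median gene in Nestin+ versus CD133+ from -0.02 to 0.12 and 0.13, and in CD133+Nestin+ versus CD133+ from -0.06 to 0.06 and 0.05, with no member passing in the second. Depth limits little here, since the lowest member level, 2.42 CPM, is far above 3 reads; 3 libraries per population limit the tests, and causes of lost calls were not tested.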
